A study of Mus musculus with 12 samples.

Results

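MicroRNA gene peaks are the accessible regions of the master peak-list that its annotation assigns to a microRNA gene as the nearest transcription start site (TSS), that is, whose gene name starts with Mir or Mirlet followed by a number, at any distance. The list held 2622 such peaks out of 84243, a share of 3.11% (95% Wilson interval 3.00% to 3.23%), and they carried 649 gene names. Of the 2622 peaks, 89 had their centre within 500 bp of the TSS and are described first (proximal peaks), and 2533 were farther away (distal peaks). By the RefSeq annotation, the start of a gene that is no microRNA gene was nearer for 173 of the 2622 peaks, 6.60% (5.71% to 7.61%), of which 1 was proximal, and 22 of the 2622 carried the name of a host gene, whose start is not a hairpin. Accessibility was measured by ATAC-seq, in which a transposase inserts sequencing adapters into exposed DNA. The 12 samples were 2 replicates of each of 6 cell types sorted from wild-type C57BL/6 mice aged 8 to 12 weeks: HSCs (hematopoietic stem cells), MkPs (megakaryocyte progenitors), EPs (erythroid progenitors), GMs (granulocyte/macrophages) and B cells taken from the bone marrow, and T cells taken from the thymus. Each cell type was isolated by flow cytometry on its surface antigens, so a group is defined by its gate. No genotype or treatment differed between the groups. The peaks of all samples had been merged into 1 list before deposition, so a peak was open in at least 1 of the 6 cell types, the list does not say in which, and neither depth nor replicate error is known for any peak. The values below are therefore descriptions with no test: peaks of 1 pooled list are not replicates, and each interval covers counting error only.

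MicroRNAs are short RNAs that pair with messenger RNAs through a seed, bases 2 to 8 of the mature strand, and lower their translation and stability. They are cut from hairpins that lie in longer primary transcripts, and those transcripts either start at a promoter of their own or are the introns and exons of a host gene. The annotated start of a microRNA gene is the 5′ end of the hairpin and not the start of the primary transcript, so a distance of 0 marks the processed hairpin and not necessarily a promoter. In blood, miR-223 is known as a microRNA of granulocytes, miR-142 is found throughout the blood lineages, miR-144 and miR-451 are erythroid and are cut from a shared transcript, and miR-155 is induced in activated lymphocytes and macrophages.

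The mature strands of the 4 marker genes and of the erythroid partner miR-451a are shown first, with the seed in capitals, because the description of single loci turns on them. All mature sequences are those of RefSeq for GRCm38.p6, the same assembly as mm10, in which 565 of the 643 gene names that were not host genes had a mature entry.
miR-223-3p: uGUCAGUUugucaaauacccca
miR-142a-5p: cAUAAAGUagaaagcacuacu
miR-142a-3p: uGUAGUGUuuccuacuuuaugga
miR-144-3p: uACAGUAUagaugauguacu
miR-451a: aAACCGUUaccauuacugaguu
miR-155-5p: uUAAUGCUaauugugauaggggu
The 5 genes carry 6 different seeds in these strands, and both strands of the Mir142 hairpin are shown.

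To determine how close the peaks lie to the hairpins, distances were compared with those of peaks named for protein-coding genes. Proximal peaks made up 3.39% of microRNA gene peaks (95% interval 2.77% to 4.16%), against 17.2% (16.9% to 17.5%) of the 72133 peaks of protein-coding genes and 16.03% (15.8% to 16.3%) of all 81621 other peaks. The median distance was 24157 bp for microRNA gene peaks and 14703 bp for those of protein-coding genes. Distances of over 100 kb were found for 18.9% of microRNA gene peaks (17.4% to 20.4%) and for 9.72% of the peaks of protein-coding genes (9.51% to 9.94%). The intervals of the 2 kinds of peak did not overlap at either end of the scale. The farthest peak lay 880785 bp from Mir592, in an intergenic stretch.

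**Figure D1:**
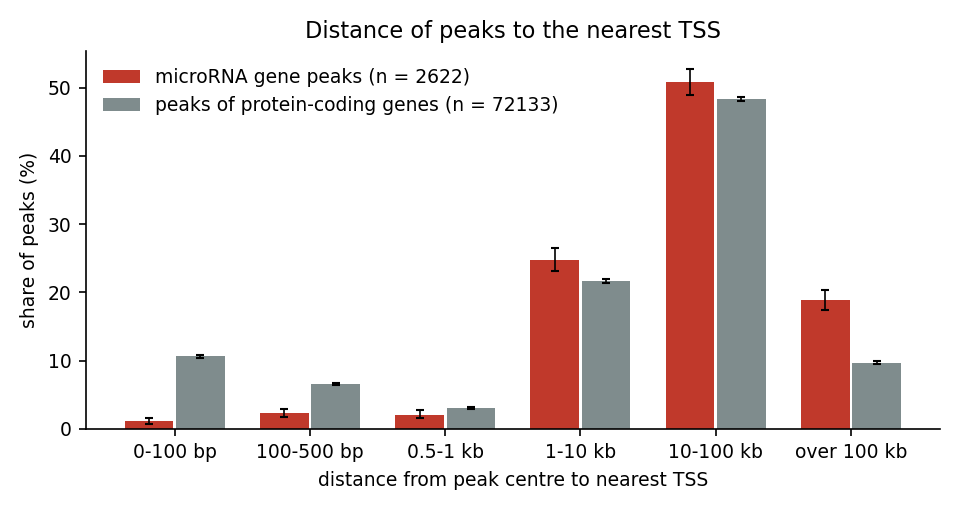
Share of peaks (y axis, percent) in 6 classes of distance from peak centre to the nearest TSS (x axis), for the 2622 microRNA gene peaks (red) and the 72133 peaks of protein-coding genes (grey). Error bars are 95% Wilson intervals; microRNA gene peaks are at 1.11% in the 0 to 100 bp class, where peaks of protein-coding genes are at 10.6%.

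Proximal peaks were spread over the 500 bp on either side of the hairpin start and did not pile up on it as peaks of protein-coding genes did. The 89 proximal peaks had a median distance of 165 bp, and 29 of them, 32.6% (23.7% to 42.9%), lay within 100 bp. Among proximal peaks of protein-coding genes the median distance was 66 bp, and 61.9% (61.1% to 62.8%) lay within 100 bp. Upstream of the hairpin lay 53 proximal peaks and downstream 35, while the peak at Mir7666 was centred exactly on its first base. Every peak in the list was 499 bp wide. Of the 86 proximal peaks that were not named for a host gene, 58 overlapped their hairpin and 48 held it whole. The whole hairpin was thus inside the accessible region at 55.8% (45.3% to 65.8%) of these peaks. That share rests in part on the choice of peaks, whose centres all lie within 500 bp of the hairpin start. Among all 1228 annotated hairpins, 86 overlapped a peak of any name. Just inside the limit of 500 bp lay the peaks of Mir33 at 496 bp downstream and Mir7235 at 498 bp upstream, and just outside it those of Mir1895 at 504 bp downstream and Mir3083 at 508 bp upstream.

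**Figure D2:**
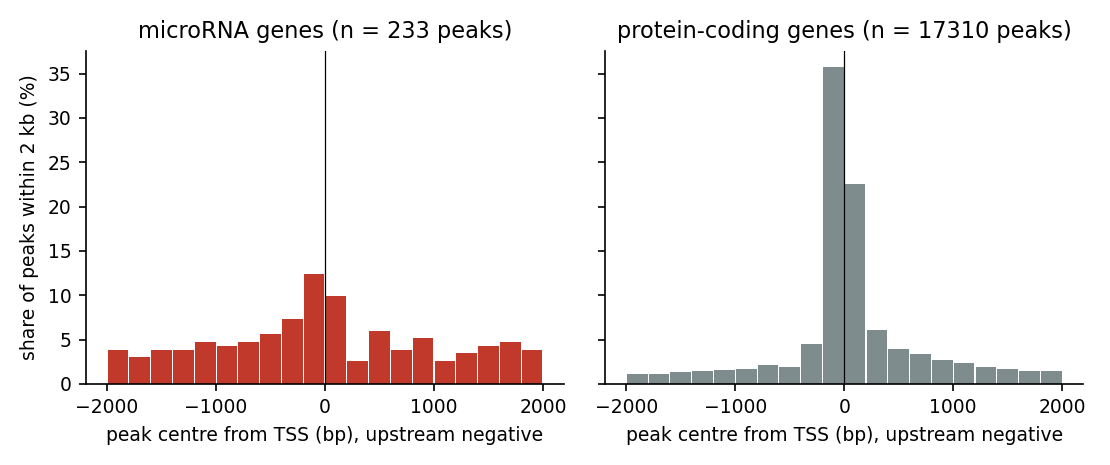
Position of peak centres within 2 kb of the TSS (x axis, bp, upstream negative, bins of 200 bp) as a share of the peaks in that window (y axis, percent), for microRNA genes (left, 233 peaks) and protein-coding genes (right, 17310 peaks). The 200 bp upstream of the TSS hold 12.4% of the microRNA gene peaks and 35.8% of the peaks of protein-coding genes.

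All 4 marker genes had accessible regions in their neighbourhood, and 3 of them had a peak within 500 bp of the hairpin. Mir142 was named by 5 peaks, all upstream, at 158, 1329, 2078, 6565 and 7268 bp. The nearest of them, classed as promoter-TSS, held the whole hairpin near its downstream edge and had a GC content of 57.5%. It held matches of 4 of the 8 motif families described further on, an AP-1/NF-E2 string 12 bp from the peak centre, E-box strings at 28 and 116 bp, the ETS consensus GGAAGT at 55 bp on either side, and a RUNX string at 145 bp. Over all peaks of the list, 15.3% held the AP-1/NF-E2 string, 74.97% that of the E-box, 42.7% that of ETS and 38.9% that of RUNX. The following 300 bases are the downstream end of that peak with the hairpin in capitals.
Mir142 peak, chr11:87756656-87756955, plus strand: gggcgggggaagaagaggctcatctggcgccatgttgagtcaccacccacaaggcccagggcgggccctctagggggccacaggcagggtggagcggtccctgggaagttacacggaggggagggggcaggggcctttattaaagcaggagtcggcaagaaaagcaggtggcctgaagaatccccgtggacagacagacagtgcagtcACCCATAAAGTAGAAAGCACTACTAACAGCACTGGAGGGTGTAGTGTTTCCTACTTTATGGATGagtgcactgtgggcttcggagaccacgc
With peaks named for other genes counted, 7 peak centres lay within 10 kb of the Mir142 hairpin and 20 within 50 kb.

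Mir155 had a single peak under its own name, centred 68 bp upstream, which held the whole hairpin. Its host gene Mir155hg, a non-coding transcript that holds the hairpin, named 3 more peaks. They lay 442 bp downstream of the host TSS and 9702 and 14211 bp upstream of it. The host TSS is 1117 bp upstream of the hairpin, so that the hairpin peak and the peak at 442 bp were neighbours with centres 607 bp apart. Both had a low GC content for proximal peaks, 39.3% at the hairpin and 40.7% in the intron of the host. The hairpin peak held an ETS match 2 bp from its centre, a match to the RUNX consensus TGTGGT at 9 bp and an E-box match at 20 bp. It also held an IRF match at 33 bp and 4 C/EBP matches at 54 bp and beyond, of which those at 156 and 157 bp overlap. Over all peaks of the list, 42.7% held the ETS string, 38.9% that of RUNX and 74.97% that of the E-box. The IRF string was in 16.3% and that of C/EBP in 62.4%. The stretch below is its downstream end, with the hairpin in capitals.
Mir155 peak, chr16:84714022-84714321, plus strand: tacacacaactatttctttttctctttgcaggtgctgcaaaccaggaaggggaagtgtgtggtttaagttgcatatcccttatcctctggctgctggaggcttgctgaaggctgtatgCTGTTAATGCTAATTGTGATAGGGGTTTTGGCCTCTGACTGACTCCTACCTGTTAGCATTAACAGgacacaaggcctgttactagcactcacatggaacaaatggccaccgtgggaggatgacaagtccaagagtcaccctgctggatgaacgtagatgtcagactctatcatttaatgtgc
These 2 peaks in the host gene were the only ones within 10 kb of the Mir155 hairpin.

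Mir144 was named by 4 peaks, all upstream, at 395, 3164, 6922 and 12436 bp. The peak at 395 bp reached neither the Mir144 hairpin nor that of Mir451a, which lies downstream of it and whose nearest peak centre was the same one, at 560 bp. A further peak, named for Mir451b, lay 1166 bp downstream of the start of Mir144, so that the hairpin cluster was flanked by peaks on both sides. A match to the GATA consensus AGATAA was present in the peaks at 395 and 3164 bp and absent from those at 6922 and 12436 bp. In the whole master peak-list 24.1% of peaks held this string, on either strand. The central 300 bases of these 2 peaks are shown because they carry the only exact matches to AGATAA among the 4 peaks. The matches are in capitals, TTATCT being the string read on the other strand. Related strings were not counted, such as TGATAA, which the second stretch holds unmarked.
Mir144 peak at 395 bp, chr11:78072461-78072760, plus strand: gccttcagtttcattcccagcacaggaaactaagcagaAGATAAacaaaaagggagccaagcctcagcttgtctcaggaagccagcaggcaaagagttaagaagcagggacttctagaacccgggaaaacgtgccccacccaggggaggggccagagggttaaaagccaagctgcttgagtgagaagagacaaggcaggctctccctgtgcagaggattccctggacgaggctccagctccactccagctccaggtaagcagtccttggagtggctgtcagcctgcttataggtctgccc
Mir144 peak at 3164 bp, chr11:78069692-78069991, plus strand: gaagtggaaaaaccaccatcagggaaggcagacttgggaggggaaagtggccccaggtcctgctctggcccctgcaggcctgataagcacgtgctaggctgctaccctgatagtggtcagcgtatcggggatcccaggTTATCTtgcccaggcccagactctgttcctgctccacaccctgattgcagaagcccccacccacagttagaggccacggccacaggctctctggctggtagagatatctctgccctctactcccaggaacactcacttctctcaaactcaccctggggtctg
The match lay 109 bp from the centre of the proximal peak and 9 bp from the centre of the upstream one. The proximal peak also held an E-box and an IRF match, and the upstream one a C/EBP and an IRF match.

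Mir223 differed from the other 3 markers in that no peak centre lay within 500 bp of its hairpin. The 2 peaks under its name were downstream, at 1926 and 2711 bp, with GC contents of 42.1% and 36.3%. Its host transcript F630028O10Rik starts 2891 bp upstream of the hairpin, and a peak classed as promoter-TSS was centred 67 bp upstream of that start. Because the host is the nearest TSS, that peak carries the host's name and is not counted among the 2622. This host peak held matches of 4 of the 8 motif families searched. They were 3 of the ETS consensus at 157, 185 and 224 bp from the peak centre, and 1 each of the C/EBP consensus TTNCNNAA at 75 bp, of GATA at 17 bp and of the IRF consensus at 2 bp. Over all peaks of the list, 42.7% held the ETS string, 62.4% that of C/EBP, 24.1% that of GATA and 16.3% that of IRF. All 6 matches are in capitals in the stretch from the upstream end of the peak.
Mir223 host start, chrX:96239610-96239909, plus strand: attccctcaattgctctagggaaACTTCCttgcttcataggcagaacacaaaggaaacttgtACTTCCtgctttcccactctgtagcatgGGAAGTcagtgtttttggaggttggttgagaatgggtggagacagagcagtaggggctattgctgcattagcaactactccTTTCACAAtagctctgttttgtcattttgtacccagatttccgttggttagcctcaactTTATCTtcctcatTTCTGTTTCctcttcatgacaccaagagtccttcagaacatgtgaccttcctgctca
Peaks named for the host continued upstream at 3962, 12698, 21586, 34536 and 61334 bp from its start.

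**Figure D3:**
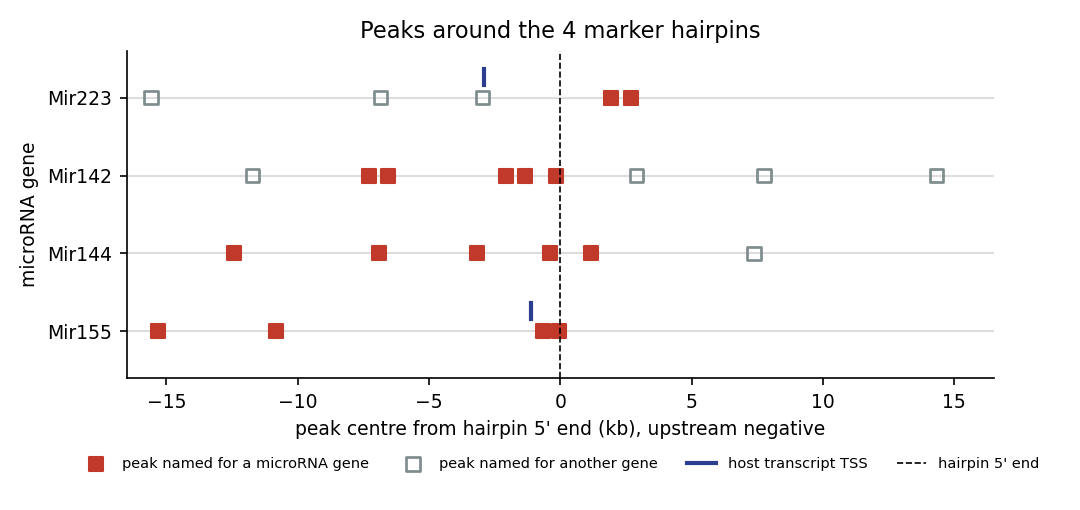
Peak centres (squares) within 16 kb of the hairpins of Mir223, Mir142, Mir144 and Mir155 (rows), by signed distance from the hairpin 5′ end (x axis, kb, upstream negative). Filled squares are the microRNA gene peaks, those named for Mir155hg included. Open squares are peaks with any other name, those of the Mir223 host F630028O10Rik included. Blue ticks are the start of the annotated host transcript. Mir223 has its nearest peaks 1926 bp downstream and at the host start, while the other 3 hairpins have a peak within 500 bp.

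Outside the markers, 6 microRNA genes of the lists of blood, cell-cycle and let-7 microRNAs named a proximal peak. Mir150, a microRNA of mature lymphocytes, had 1 peak at 237 bp upstream that covered 13 bp of its hairpin. Mir210, known for its induction by low oxygen, had 1 peak at 489 bp upstream. Mir130a, expressed in progenitors and megakaryocytes, had a peak 286 bp downstream and others 2631 and 16280 bp upstream. Mir128-2, which lies in an intron of Arpp21, had 7 peaks, the nearest 58 bp upstream and holding the hairpin, the farthest 199939 bp downstream. Mir132 had 1 peak, 129 bp upstream, which also lay 165 bp downstream of the start of the Mir212 hairpin, so that a single region covered both members of this pair.

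The proximal peak of Mirlet7i, a let-7 gene, lay 187 bp upstream, and its GC content of 77.6% was the highest of the 89 proximal peaks. Mirlet7i named 13 peaks, of which 8 lay inside the neighbouring gene Ppm1h, up to 139026 bp away. The stretch from that proximal peak is shown because of this composition, with the part of the hairpin that it covers in capitals. The hairpin is on the minus strand.
Mirlet7i peak, chr10:122985662-122985961, plus strand: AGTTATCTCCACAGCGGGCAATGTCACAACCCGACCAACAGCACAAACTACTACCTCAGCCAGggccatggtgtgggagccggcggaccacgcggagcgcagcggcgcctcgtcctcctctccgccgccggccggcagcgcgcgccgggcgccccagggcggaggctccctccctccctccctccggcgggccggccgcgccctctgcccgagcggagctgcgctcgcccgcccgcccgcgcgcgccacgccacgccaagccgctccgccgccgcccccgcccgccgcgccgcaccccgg
Among microRNAs of other tissues, the neural Mir9-2 was the only gene of its list to name a proximal peak, at 424 bp upstream. The embryonic genes Mir294 and Mir295 had a peak centre 175 and 307 bp upstream of them, which carried the name of Mir293 in the same cluster.

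Peaks near a hairpin can carry another gene's name, so hairpins were next counted whatever the name of the peak. Of the 1228 microRNA genes annotated on the assembled chromosomes, 139 had a peak centre within 500 bp, 11.3% (9.67% to 13.2%), and 744 had one within 10 kb, 60.6% (57.8% to 63.3%). For 55 of the 139 hairpins the peak named some other gene. Mir125a of the stem and progenitor list is an example, with a peak named for Spaca6 at 361 bp downstream. Mir24-2 had its peak 404 bp downstream under the name of Mir3074-2, which is annotated on the opposite strand of the same hairpin.

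Lists of microRNA genes were compared next, first at the hairpin and then at the start of the host transcript. A peak within 500 bp was present at 4 of 23 hairpins of the lymphoid and myeloid list, 3 of 12 of the erythroid and megakaryocyte list, 4 of 22 of the stem and progenitor list, 1 of 14 of the let-7 family and 3 of 40 of the list of other tissues. None of the 21 hairpins of the cell-cycle clusters had one, which leaves a share of up to 15.5% by the Wilson interval. These are the clusters around Mir17, Mir106a, Mir106b, Mir15a and their relatives, known to promote or restrain cell division. The intervals of all 6 lists were wide and held the share of all hairpins, and hairpins of 1 cluster share their peaks.

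At the start of the host transcript, the 5 lists of blood, cell-cycle and let-7 microRNAs lay near the share of all hosts, and the list of other tissues lay below it. Of the 776 hairpins inside a gene on the same strand, 613 had a peak within 500 bp of a start of that gene, 79.0% (76.0% to 81.7%). Over the 5 lists together the count was 31 of 34, 91.2% (77.0% to 97.0%), and in the list of other tissues it was 2 of 26, 7.69% (2.14% to 24.1%). The interval of the 5 lists held the share of all such hairpins, and that of the other tissues lay below both. Several hairpins share a host, and counted by distinct host gene the values were 507 of 624 over all hairpins, 81.3% (78.0% to 84.1%), 21 of 24 for the 5 lists, 87.5% (69.0% to 95.7%), and 2 of 15 for the other tissues, 13.3% (3.74% to 37.9%). Of all 21000 protein-coding genes, 60.4% (59.7% to 61.1%) had a peak within 500 bp of a start. Hosts are not all protein-coding: Mir155hg and, in the list of other tissues, Mir9-3hg and Mir124-2hg are non-coding. The mix of coding and non-coding hosts was not compared between the lists. Hosts with a peak included Mir22hg, Vmp1 (the host of Mir21a), Evl (Mir342), Egfl7 (Mir126a), Ank1 (Mir486) and Mcm7 (Mir106b, Mir93 and Mir25). In the 5 lists, the hosts of hairpins without such a peak were Mir17hg and Lncppara. Mir17hg is annotated over Mir92-1 and not over the other hairpins of its cluster, and Lncppara holds Mirlet7b and Mirlet7c-2. Hoxd3 and Hoxd4 both hold Mir10b, and only 1 of them had such a peak, so the hairpin counts as having one. In the list of other tissues, hosts without one included the cardiac myosin genes Myh6, Myh7 and Myh7b, which hold Mir208a, Mir208b and Mir499. Within 10 kb of the hairpin, 76 of 89 hairpins of the 5 lists (85.4%, 76.6% to 91.3%) and 29 of 40 of the other tissues (72.5%, 57.2% to 83.9%) had a peak, and these intervals overlapped.

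**Figure D4:**
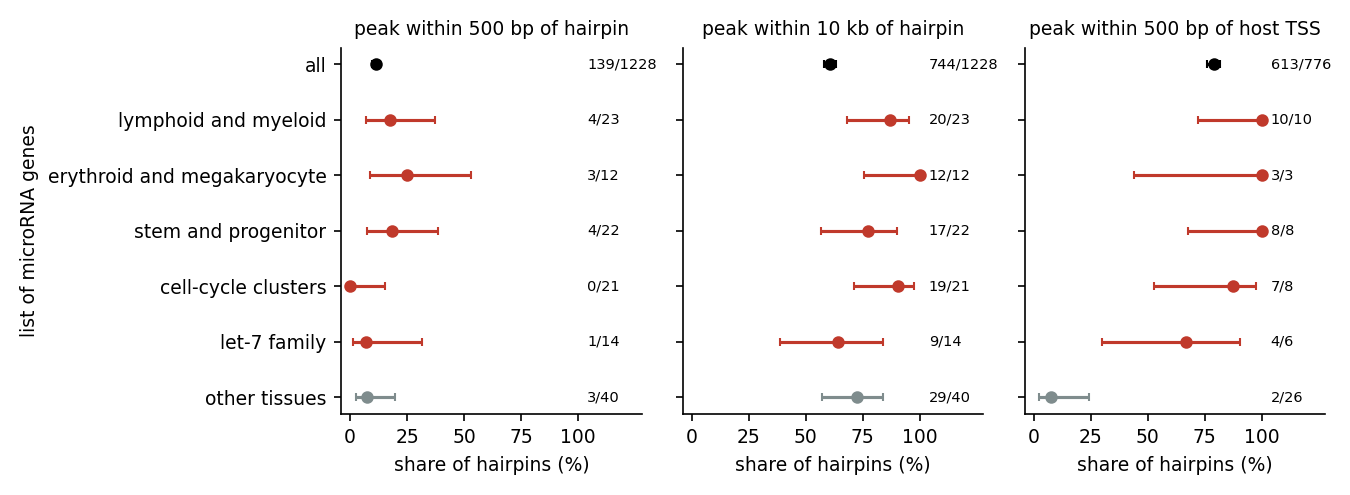
Share of hairpins (x axis, percent) with a peak centre within 500 bp of the hairpin (left), within 10 kb of it (middle) and within 500 bp of a start of the host gene (right, hairpins inside a same-strand gene only), for all hairpins (black), 5 lists of blood, cell-cycle and let-7 microRNAs (red) and the list of other tissues (grey). Points carry 95% Wilson intervals and counts; at host starts the list of other tissues lies at 2 of 26 while the 5 lists lie between 4 of 6 and 10 of 10.

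The Mir17 cluster had no peak at its hairpins and none within 500 bp of the annotated start of Mir17hg. RefSeq places Mir17hg over Mir92-1 and over no other hairpin of the cluster. That start thus lies inside the cluster, downstream of Mir17, and is not the start of a transcript that holds all its hairpins. All 5 peaks under its name were upstream, the nearest at 1393, 2313 and 2863 bp. Their GC contents were 70.7%, 81.4% and 76.8%, and the middle one was the most GC-rich of all 2622 microRNA gene peaks. The nearest peak to the 6 hairpins of the cluster was the same one, from 1393 bp upstream of Mir17 to 2149 bp upstream of Mir92-1. Mir22 had its nearest peak 666 bp upstream, and its host Mir22hg named 3 peaks, 1 of them 125 bp upstream of the host start. Mir181a-1, a microRNA of T cell development, differed from both in distance. It named 17 peaks, all upstream, and the nearest was 43548 bp away. Among the other gene starts nearest to these peaks were those of Ptprc and Nr5a2.

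Proximal microRNA gene peaks fell into those at the start of another gene and those without one. Another TSS lay within 500 bp of 18 of the 89 peaks, 20.2% (13.2% to 29.7%), of which 3 were peaks named for a host gene, whose own start is the TSS. The microRNA names of the other 15 peaks were all numbered 1000 or above, which are the later entries of the microRNA registry. Such late names made up 63 of the 87 names with a proximal peak and 441 of the 649 names overall. Examples are Mir8092 at the start of Zfp518a, Mir8114 at that of Glul and Mir8101 at that of Hdac5. The 18 peaks with another TSS had a median GC content of 67.8% (quartiles 57.9% and 71.7%), and the 71 peaks without one had 53.5% (48.9% and 58.9%). All other proximal peaks of the list had 63.3% (57.7% and 68.7%). Distal peaks had 47.9% among microRNA genes and 47.7% among the rest. The peaks at microRNA hairpins without another start thus lay between promoter and distal peaks in base composition.

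Hairpins numbered 1000 or above had a peak within 500 bp in 96 of 654 cases, 14.7% (12.2% to 17.6%), and those numbered below 1000 together with let-7 in 39 of 526, 7.41% (5.47% to 9.98%). This split was chosen after the values were seen. Counted by single hairpin, the intervals of the 2 groups did not overlap. These intervals treat hairpins as independent, while hairpins of the same cluster share their peaks. When hairpins within 10 kb on the same strand were counted once, 96 of 638 clusters numbered 1000 or above had a peak within 500 bp. Among those numbered below 1000 together with let-7, 35 of 303 clusters had one. The shares by cluster lay closer together than those by hairpin, and no interval was computed for them.

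Distal peaks lay mostly in introns and between genes. By the annotation of the list, 1273 of the 2533 distal peaks were intronic, 50.3% (48.3% to 52.2%), and 1068 were intergenic, 42.2% (40.3% to 44.1%). Among the 68539 other distal peaks the shares were 47.9% and 44.7%. By RefSeq gene bodies, 1425 distal peaks, 56.3% (54.3% to 58.2%), had their centre in a gene other than a microRNA gene, against 54.0% (53.6% to 54.4%) of other distal peaks, and 482 genes held at least 1 of the proximal or distal peaks. Pde4d, a phosphodiesterase that breaks down cyclic AMP, held 50 of them under the names Mir1904 and Mir582. The uncharacterised gene 2610307P16Rik held 26 under Mir6368, and Ppm1h held 25 under Mir8104 and Mirlet7i. Itpr1, a calcium channel of the endoplasmic reticulum, held 20 under Mir7661. Hecw2 held 17 under Mir7681, and Bcl2, the anti-apoptotic gene, 16 under Mir3473f. The list placed 14.7% of distal microRNA gene peaks (13.4% to 16.2%) in a repeat element, and 18.01% (17.7% to 18.3%) of other distal peaks.

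The 5 names with the most peaks were Mir6388 with 43, Mir1904 and Mir7094-2 with 33 each, Mir467h with 32 and Mir5130 with 27, a count that Mir6368 equalled. Together the first 5 took 168 of the 2622 peaks, while 185 of the 649 names had only 1 peak and the median was 3. None of these 5 names but Mir7094-2 had a proximal peak. The peaks of Mir6388 spanned 749511 bp of chromosome 12 and those of Mir5130 spanned 505107 bp of chromosome 14, all of the latter downstream of the hairpin. The peaks of Mir467h spanned 278204 bp of chromosome 9, and 30 of the 32 were downstream.

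The names Mir6388, Mir7094-1 and Mir7094-2 belong to the immunoglobulin heavy chain locus Igh, which B cells rearrange from variable, diversity and joining segments. This locus, chr12:113256204-116009954 by the RefSeq segments, held 129 peaks, of which 90 were microRNA gene peaks, 43 named for Mir6388, 33 for Mir7094-2 and 14 for Mir7094-1. Of the 90, 60 overlapped an annotated variable segment by at least 1 bp, 66.7% (56.4% to 75.5%), and 2 were proximal. The nearest-TSS column thus gave microRNA names to 69.8% of the peaks in this locus. The light chain loci Igk and Igl held 119 and 10 peaks and the T cell receptor loci Tcra/Tcrd, Tcrb and Tcrg held 40, 36 and 4, none of them named for a microRNA gene.

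Host gene names made up 22 of the 2622 peaks, under 6 names, and 3 of them were proximal. Mir99ahg, a long transcript named for Mir99a, named 11 peaks, 1 of them 20 bp upstream of its start and the others from 1856 to 155781 bp away. Mir22hg and Mir155hg named 3 each. The neural host genes Mir9-3hg, Mir124a-1hg and Mir124-2hg named 2, 2 and 1, and none of these 5 peaks was within 500 bp of a host start.

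Consensus strings of 8 families of transcription factors of blood cells were searched on both strands of each whole peak. For exact matches in the whole peak, the 95% interval of proximal microRNA gene peaks lay above the share of other proximal peaks in 7 families and held that share for ETS. The E-box string CAGNTG was in 88.8% of them (80.5% to 93.8%) against 63.3% of other proximal peaks. The C/EBP string given above was in 53.9% (43.6% to 63.9%) against 38.6%. The IRF string GAAANNGAA was in 24.7% (16.9% to 34.6%) against 10.4%, and the RUNX string given above in 29.2% (20.8% to 39.4%) against 19.5%. The GATA string was in 15.7% (9.61% to 24.7%) against 8.61%, the AP-1/NF-E2 string TGANTCA in 14.6% (8.74% to 23.4%) against 6.75%, and a loose CTCF string, with 7 fixed bases out of 11, in 23.6% (15.98% to 33.4%) against 13.5%. The ETS string was in 38.2% (28.8% to 48.6%) against 36.1%. Over the whole list the shares were 74.97% for the E-box, 62.4% for C/EBP, 42.7% for ETS and 38.9% for RUNX. They were 24.1% for GATA, 19.7% for CTCF, 16.3% for IRF and 15.3% for AP-1/NF-E2. Proximal microRNA gene peaks were below these shares for C/EBP, ETS, RUNX, GATA and AP-1/NF-E2, with intervals that held them. They were above for CTCF, with an interval that held the share, and for the E-box and IRF, with intervals above it. In the central 200 bp the intervals for the E-box and IRF held the shares of the whole list. The E-box was there at 53.9% (43.6% to 63.9%) against 46.8%, and IRF at 10.1% (5.41% to 18.1%) against 6.96%. With 1 mismatch allowed, both intervals also held those of the whole list.

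Base composition moved with the comparison to other proximal peaks, and its part in that comparison was not tested. Proximal microRNA gene peaks had a median GC content of 54.9% against 63.3% in other proximal peaks. In the central 200 bp alone the interval lay above the share of the other peaks in 5 of the 8 families. It held that share for GATA, at 4.49% (1.76% to 10.99%) against 2.89%, and for C/EBP, at 21.3% (14.1% to 30.95%) against 16.49%. ETS was the remaining family. With 1 mismatch allowed it lay above in 3 families, GATA, AP-1/NF-E2 and IRF. Distal microRNA gene peaks were close to other distal peaks: for exact matches in the whole peak, the interval held the share of the others in 7 families. The exception was ETS, at 40.6% (38.7% to 42.5%) against 44.0%. In the central 200 bp the interval held it in 6 families, with ETS below and RUNX above, at 27.8% (26.0% to 29.5%) against 25.9%. With 1 mismatch allowed it held the share in all 8. A match of these strings is a description of the sequence and not a binding site, and the strings of several families can overlap.

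**Figure D5:**
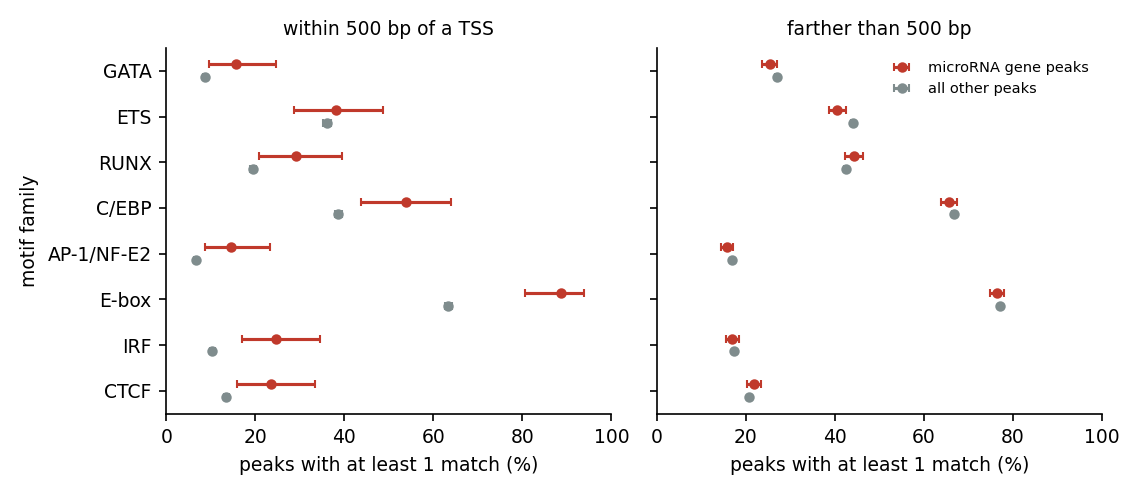
Share of peaks with at least 1 match (x axis, percent) to the consensus string of 8 motif families (y axis), for microRNA gene peaks (red) and all other peaks (grey), within 500 bp of a TSS (left) and farther away (right). Error bars are 95% Wilson intervals; on the left the E-box is at 88.8% against 63.3%, on the right the 2 kinds of peak lie at nearly the same values.

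Proximal microRNA gene peaks lay in denser surroundings than distal ones. The nearest neighbouring peak centre was at a median of 2958 bp (quartiles 1062 and 6779 bp) from proximal peaks and at 5282 bp (2157 and 11755 bp) from distal ones. For other peaks the order was not the same, with medians of 4932 bp for proximal and 4526 bp for distal peaks. A median of 2 further peaks lay within 10 kb of a proximal microRNA gene peak and 1 in the other 3 groups, and the quartiles overlapped throughout.

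The microRNAs with peaks were also grouped by seed. The mature strands of the 565 genes carried 807 seeds, of which 64 occurred in more than 1 gene with a peak and 2 in more than 1 gene with a proximal peak. Of the 565 genes, 78 had a proximal peak, so the counts of 64 and 2 come from sets of unlike size. One of the 2 seeds shared by proximal genes was that of Mir7094-1 and Mir7094-2, the copies in the Igh locus. The other was GGCAGUG, carried by Mir34b and Mir449c on different chromosomes, whose proximal peaks lay 131 and 83 bp downstream of the hairpin start and held it whole. The let-7 seed GAGGUAG belonged to 6 genes with 29 peaks, only Mirlet7i among them having a proximal peak. The seed AUUGCAC of the miR-92 family belonged to 4 genes with 8 peaks, of which that of Mir92b was proximal, at 357 bp upstream. The strands below show these groups, with miR-132-3p and miR-212-3p, which share a seed and a single peak, and miR-21c, whose peak at 31 bp upstream held its hairpin and whose seed is that of the abundant miR-21a-5p.
miR-34b-5p: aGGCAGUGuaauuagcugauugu
miR-449c-5p: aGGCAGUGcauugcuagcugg
let-7i-5p: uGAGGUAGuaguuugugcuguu
miR-92b-3p: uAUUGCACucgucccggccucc
miR-363-3p: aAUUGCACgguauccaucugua
miR-132-3p: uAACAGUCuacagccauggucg
miR-212-3p: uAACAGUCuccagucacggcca
miR-21c: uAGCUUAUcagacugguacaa
miR-21a-5p: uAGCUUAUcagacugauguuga
Mir21c named 23 peaks, 1 of them proximal, and Mir21a named 12, the nearest 2744 bp downstream of its hairpin.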

How the data were processed

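ATAC-seq had been performed in 12 samples of 6 cell types. The authors identified peaks for each cell type on mm10 with the pipeline of the ENCODE project, reduced them with chromVAR to peaks that do not overlap, and annotated the merged list with HOMER (version 4.10.2 in the submitters' processing notes). That list was the only file used. Positions and distances to the TSS, in bp, and annotation classes were taken as deposited. The deposited peak score was 0 in every row and was not used. The list holds 0 columns of values per sample, so depth is unknown and no test between cell types was made.

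Members were the rows whose gene name starts with Mir or Mirlet and a number. Sequence, genes and hairpins were from RefSeq of GRCm38.p6, and all 643 names that were not host genes matched by gene identifier. The listed distance was within 2 bp of the RefSeq hairpin start for 97.3% of these peaks. Host genes were same-strand RefSeq genes over the hairpin. Shares carry 95% Wilson intervals. The motif search and the search for the nearest position were tested on simulated data, and the other distance steps were not. The members and gene lists were chosen with earlier results of these data known. Named genes were the 4 markers, listed genes with a proximal peak, the 5 names with most peaks, the peaks beside the 500 bp limit and the farthest one, and host gene names. All other genes were chosen after their values were seen. The software was samtools 1.23.1 and, under Python 3.11.15, pysam 0.24.0, scipy 1.17.1, matplotlib 3.10.9, pandas 2.3.3 and numpy 2.4.6.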

Additional observations from a re-analysis of the deposited data

How the results depend on the processing

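No paired analysis was possible because the list pools all samples and holds no value per sample; for the same reason no replicate could be left out. The count of proximal peaks was 89 and fell to 29 within 100 bp and rose to 144 within 1000 bp. It was 86 without host gene names or with RefSeq hairpin starts, 88 without peaks nearer to another TSS, and 71 where no other TSS lay within 500 bp, an alternative chosen after seeing the data. Hairpins with a peak within 500 bp numbered 139, against 86 by an overlap of at least 1 bp, 207 within 1000 bp and 132 when hairpins within 10 kb on 1 strand were counted once. Summed over the 8 motif families, 257 pairs of proximal peak and family had a match, 138 in the central 200 bp and 659 with 1 mismatch allowed, where single families were found in 80.9% to 100% of proximal peaks. Intronic peaks numbered 1273 by HOMER and 1354 by RefSeq. GC content and spacing moved by less than the quartiles. The list cannot show in which cell type a region was open, and a microRNA name gives only the start that the list's annotation took as nearest, which for 173 of the 2622 peaks is not the nearest RefSeq start.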
